A study of Mus musculus with 70 samples.

Results

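The mRNA levels of 9 genes that set the G1 brake and drive of the cell cycle were followed through the blood leukocytes of mice exposed to chronic social defeat stress (CSDS). These were the CDK inhibitors Cdkn2d, Cdkn2c, Cdkn1a and Cdkn1b, the D cyclins Ccnd1, Ccnd2 and Ccnd3, and the kinases Cdk4 and Cdk6, 9 of the 52636 genes in the count table. Cdkn2d was chosen by its measured log2 fold change, because it differed between susceptible and control mice in Ly6Chigh monocytes, and the other 8 genes were added as its partners. All values of Ly6Chigh monocytes in that contrast are therefore a description, and nothing is read from counts of calls in it.

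C57BL/6J mice aged 7 to 8 weeks, whose sex the labels do not give, met CD-1 aggressors over 10 days of CSDS and were then scored in a social interaction test. Susceptible mice (SUS) had an interaction ratio under 1, resilient mice (RES) a ratio of 1 or more, and control mice (CON) were unstressed and lived in pairs across a partition. Blood cells were sorted into Ly6Chigh monocytes, Ly6Clow monocytes, B cells and T cells, giving 12 groups of 4 to 6 libraries. No transgene or other allele is named for any group, and the labels name no mouse, so p-values measure the spread between libraries, which may in part be technical. Brain stands as the source in the sample labels, whereas the series design and the study's methods give blood, and the markers were those of blood leukocytes.

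Of 70 libraries 68 were used. Library 52, labelled B cells of RES mice, held Cd3e at 412 CPM (counts scaled to a common library total) and Cd79a at 5.76 CPM. Library 70, labelled T cells of RES mice, held Cd79a at 1417 CPM and Cd3e at 0.143 CPM, and both were left out. In the other libraries the defining markers followed the labels: in CON mice Ly6c2 was at 268 CPM in Ly6Chigh and 0.689 CPM in Ly6Clow monocytes, Ace at 277 and 2653 CPM, Cd79a reached 1539 CPM in B cells and Cd3e 443 CPM in T cells. The Ly6Clow libraries also carried NK cell transcripts (4 genes, summed at 245 to 1345 CPM over all groups, against 0.181 to 37.9 CPM in Ly6Chigh monocytes). Libraries held 19769835 to 67038231 counts.

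A cell in G1 is held by the retinoblastoma protein, which keeps E2F transcription factors from switching on the genes of DNA replication. D cyclins bind CDK4 or CDK6, and the active kinases phosphorylate the retinoblastoma protein and release E2F. INK4 proteins, among them p19 (Cdkn2d) and p18 (Cdkn2c), bind CDK4 and CDK6 and keep D cyclins away, whereas the CIP/KIP proteins p21 (Cdkn1a) and p27 (Cdkn1b) bind cyclin and kinase together and act mainly on CDK2. Most circulating leukocytes are outside the cell cycle, and which D cyclin a blood cell uses depends on its lineage.

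Promoter sequence is shown for 4 of these genes, the inhibitor on which the set is built, both kinases and the inhibitor best known as a p53 target, chosen because the results on stress and on p53 turn on them. Gene positions are those of GENCODE M21 on mm10. RefSeq promoter entries (GRCm38.p6, the same assembly) were matched for 7 of the 9 genes. Each line gives, on the gene's own strand, bases before the RefSeq start up to the first base that GENCODE M21 places in an exon of the gene. The Cdk6 stretch lies inside the GENCODE span of the gene, which begins further upstream. Capitals mark matches on either strand to any of 5 motifs, and no 2 matches in these stretches overlap. The E-box was searched as CACGTG. The letters of the CCAAT box are those of its name. For the GC box the search string was GGGCGG. An E2F-type motif was taken as TTTNNCGC, with N for any base. A p53-type motif was 2 copies of CATG with 6 bases between them.
Cdkn2d, chr9:21291408-21291459, minus strand: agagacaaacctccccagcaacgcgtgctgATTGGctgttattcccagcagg
Cdk4, chr10:127063285-127063533, plus strand: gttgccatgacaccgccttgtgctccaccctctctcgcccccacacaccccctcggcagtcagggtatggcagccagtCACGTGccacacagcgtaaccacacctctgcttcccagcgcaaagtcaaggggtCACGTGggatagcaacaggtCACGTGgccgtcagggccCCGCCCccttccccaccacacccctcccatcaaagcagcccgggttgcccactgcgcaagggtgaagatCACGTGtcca
Cdk6, chr5:3343643-3343731, plus strand: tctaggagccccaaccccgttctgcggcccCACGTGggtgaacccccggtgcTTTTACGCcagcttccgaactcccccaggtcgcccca
Cdkn1a, chr17:29090729-29090975, plus strand: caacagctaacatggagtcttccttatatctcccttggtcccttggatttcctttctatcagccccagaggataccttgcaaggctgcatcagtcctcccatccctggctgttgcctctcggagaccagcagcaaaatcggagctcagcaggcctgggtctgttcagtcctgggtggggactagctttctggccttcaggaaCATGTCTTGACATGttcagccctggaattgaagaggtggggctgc

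The 250 bases before the RefSeq start of Cdk4 held 4 E-boxes, the letters bound by MYC and its relatives, and those of Cdk6 held 1; an E-box occurred in 6.02% of 32851 promoters of this length. The Cdkn1a window upstream of the first of its listed starts held 1 p53-type match, a motif seen in 0.49% of promoters. The Cdkn2d window held 3 GC boxes and 1 CCAAT box, motifs present in 32.7% and 33.8% of promoters, and neither an E-box nor an E2F-type match. The Cdk6 window held 1 E2F-type match, found in 4.28% of promoters. These are matches of letters, not measured binding sites.

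Cdkn2d (ENSMUSG00000096472, chromosome 9 from 21288410 to 21291407) had its highest levels in Ly6Chigh monocytes of stressed mice, in SUS and RES alike. In Ly6Chigh monocytes its level over 6 CON libraries was 17.0 CPM at the lowest, 25.8 at the median and 32.7 at the highest. Over 6 SUS libraries the corresponding levels were 39.5, 93.9 and 131 CPM, and over 6 RES libraries 37.9, 59.2 and 95.4 CPM. Every stressed library of Ly6Chigh monocytes, SUS or RES, lay above every CON library, and SUS and RES overlapped. The means were 25.2 ± 5.37 (CON), 90.2 ± 30.0 (SUS) and 60.5 ± 21.0 CPM (RES; SD, n = 6 each). The log2 fold change was 1.81 ± 0.245 (SE) for SUS against CON, a 3.51-fold higher level, and 1.25 ± 0.241 for RES against CON, a 2.38-fold higher level. SUS exceeded RES by 0.56 ± 0.238 on the log2 scale. In bulk libraries, more cells that carry an RNA and more of it in each cell cannot be told apart.

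**Figure D1:**
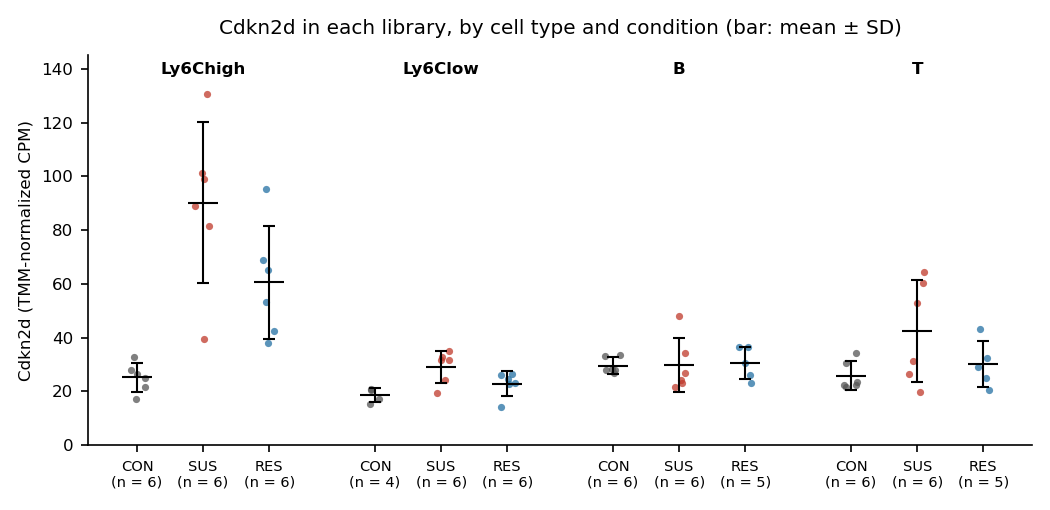
Cdkn2d level (CPM, vertical axis) in each library of the 4 sorted cell types, by CON, SUS and RES mice; points are libraries and the bars are group means with SD. In Ly6Chigh monocytes the 12 stressed libraries start at 37.9 CPM, above the highest CON library at 32.7 CPM, while in B cells the 3 groups share one range.

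The choice of Cdkn2d did not use the libraries of the other sorted cells. Whether these came from the same mice is not given in the labels, so they are not taken as an independent check. In Ly6Clow monocytes the 4 CON libraries were at 15.4, 21.0, 17.3 and 20.4 CPM, and the 6 SUS libraries ran from 19.4 over a median of 31.5 to 35.0 CPM. Of the 6 SUS libraries 5 lay above all CON libraries, but the log2 fold change of 0.64 ± 0.183 (SE) did not pass the adjusted threshold (edgeR quasi-likelihood test, Benjamini-Hochberg adjusted p = 0.166). RES libraries of Ly6Clow monocytes ran from 14.2 over 23.9 to 26.4 CPM, with a log2 fold change of 0.28 ± 0.181 (adjusted p = 0.694). The Ly6Clow monocytes thus overlapped between groups in both contrasts.

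In B cells the Cdkn2d levels of stressed and control mice overlapped. The CON libraries ran from 26.7 over 28.1 to 33.6 CPM, the SUS libraries from 21.7 over 25.6 to 48.0 CPM, and the 5 RES libraries were at 30.3, 26.0, 36.5, 23.2 and 36.5 CPM. The log2 difference of SUS from CON was 0.01, with an approximate 95% interval from -0.34 to 0.36, and that of RES was 0.05, from -0.31 to 0.41. A change of 1 on the log2 scale, the size needed for a call, lay outside both intervals.

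In T cells the SUS libraries spread widely. Of the 6 SUS libraries, 3 held Cdkn2d at 60.1, 64.6 and 52.7 CPM, above every CON library, and the other 3 at 31.2, 26.4 and 19.8 CPM, inside or below the CON range of 21.7 to 34.3 CPM. The log2 fold change was 0.72 ± 0.261 (SE; edgeR adjusted p = 0.705). The 5 RES libraries were at 32.4, 20.6, 43.1, 29.1 and 25.0 CPM, a log2 difference of 0.21 ± 0.272 from CON.

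Whether the change in RES mice differed between cell types was tested for the genes other than Cdkn2d, whose Ly6Chigh libraries had chosen it. For Cdkn2d the change in RES mice was smaller than in Ly6Chigh monocytes by 0.96 in Ly6Clow monocytes, 1.22 in B and 1.05 in T cells on the log2 scale, given without a test. In contrasts that leave Ly6Chigh monocytes out, the change in SUS mice was larger in T than in B cells by 0.72 ± 0.319 (SE; edgeR interaction contrast, adjusted p = 0.554). It differed between T cells and Ly6Clow monocytes by 0.07 ± 0.338 (adjusted p = 1.000).

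In unstressed mice Cdkn2d was one of the most even of the 9 genes. Mean levels in CON libraries were 29.6 ± 3.02 CPM in B cells (SD, n = 6), 25.8 ± 5.35 in T cells, 25.2 ± 5.37 in Ly6Chigh monocytes and 18.5 ± 2.65 in Ly6Clow monocytes (n = 4). B cells exceeded Ly6Clow monocytes by 0.68 ± 0.257 on the log2 scale with no overlap of libraries (edgeR adjusted p = 0.0307), under the fold needed for a call. Neighbours in this order overlapped, T and B cells differing by -0.20 ± 0.225 (adjusted p = 0.596), and T cells did not differ from Ly6Clow monocytes past the threshold (0.48 ± 0.256, adjusted p = 0.142), although their libraries did not overlap.

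**Figure D2:**
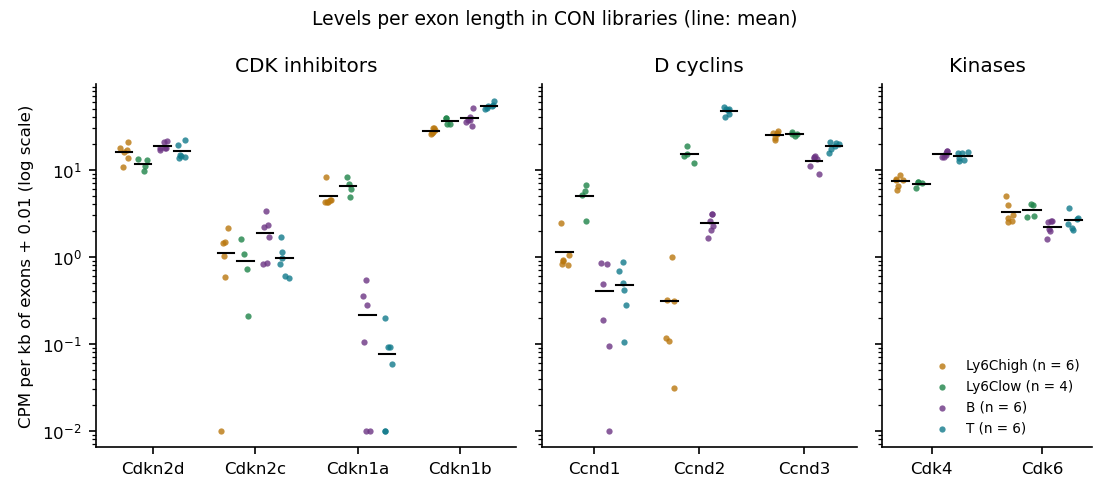
Level per kilobase of exon (log scale, a small constant added) of the 9 genes in CON libraries of each cell type; points are libraries. Cdkn2d, Cdkn1b, Ccnd3 and Cdk4 stay within about one decade across cell types, whereas Ccnd2 and Cdkn1a run through several.

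The remaining inhibitors divided into an abundant gene, a lineage gene and a scarce gene. Cdkn1b (ENSMUSG00000003031, chromosome 6 from 134920401 to 134925513), which encodes p27, was carried by every cell type and was highest in T cells. CON means were 248 ± 18.4 CPM in T cells, 177 ± 30.3 in B cells, 166 ± 14.6 in Ly6Clow monocytes and 128 ± 8.75 in Ly6Chigh monocytes (SD). T cells exceeded Ly6Chigh monocytes by 0.96 ± 0.0985 on the log2 scale (SE; edgeR adjusted p = 4.44e-13), just under the fold needed for a call, with all 6 T cell libraries above all 6 Ly6Chigh libraries. B cells and Ly6Clow monocytes overlapped, at a log2 difference of 0.10 with an interval from -0.12 to 0.31.

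Stress left Cdkn1b close to its CON level in Ly6Chigh monocytes, with means of 116 ± 16.7 (SUS) and 125 ± 24.2 CPM (RES). In Ly6Clow monocytes the 4 CON libraries were at 179, 154, 152 and 178 CPM and the 6 RES libraries at 186 to 217 CPM, with no overlap. That log2 difference of 0.25 ± 0.0862 (SE) did not pass the edgeR test (adjusted p = 0.292). In T cells the difference was -0.15 in SUS and -0.17 in RES mice, and neither passed.

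Cdkn1a (ENSMUSG00000023067, chromosome 17 from 29090976 to 29100727), which encodes p21 and is induced by p53, was a monocyte transcript here. It was at 17.8 ± 5.68 CPM in Ly6Chigh and 23.0 ± 5.08 CPM in Ly6Clow monocytes of CON mice (SD), against 0.731 ± 0.755 CPM in B cells and 0.237 ± 0.249 CPM in T cells, where 2 of 6 libraries of each cell type had no count. The highest B cell library reached 1.89 CPM and the highest T cell library 0.67 CPM, far below the lowest monocyte library at 15.0 CPM. Cdkn1a was lower in B cells, with log2 differences of -4.59 ± 0.756 and -4.96 ± 0.793 from Ly6Chigh and Ly6Clow monocytes (SE; edgeR adjusted p = 7.95e-07 and 5.13e-07). In T cells the differences were -6.21 ± 0.830 and -6.59 ± 0.861 (adjusted p = 4.74e-09 and 3.60e-09).

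No stress contrast called Cdkn1a, which AC167363.2 overlaps on the other strand; no such overlap is annotated for Cdkn2d, Cdkn2c or Cdkn1b. In Ly6Chigh monocytes the medians were 15.6 CPM in CON, 19.1 in SUS and 14.9 in RES libraries. In Ly6Clow monocytes RES libraries were lower by 0.48 ± 0.239 on the log2 scale (edgeR adjusted p = 0.524), with 4 of 6 below all CON libraries. Cdkn2c (ENSMUSG00000028551, chromosome 4 from 109660876 to 109667189), which encodes p18, was scarce in every cell type: its group means lay between 2.33 and 5.02 CPM, the CON mean was highest in B cells, and no comparison called it.

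Set against each other per exon length, the 4 inhibitors differed in weight between cell types. In CON mice Cdkn1b made up 75.8% ± 4.34 (SD) of the summed inhibitor level in T cells, 65.5% ± 4.49 in Ly6Clow monocytes, 64.9% ± 3.36 in B cells and 56.3% ± 4.77 in Ly6Chigh monocytes. Cdkn2d followed with 31.7% ± 4.98 in Ly6Chigh monocytes, 31.6% ± 2.19 in B cells, 22.8% ± 4.20 in T cells and 21.2% ± 2.62 in Ly6Clow monocytes. In Ly6Chigh monocytes of stressed mice the order of the pair turned round, as a description of the libraries that chose the gene: Cdkn2d held 61.8% ± 10.9 in SUS and 52.3% ± 10.7 in RES mice, and Cdkn1b 29.8% ± 9.95 and 39.3% ± 10.6.

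**Figure D3:**
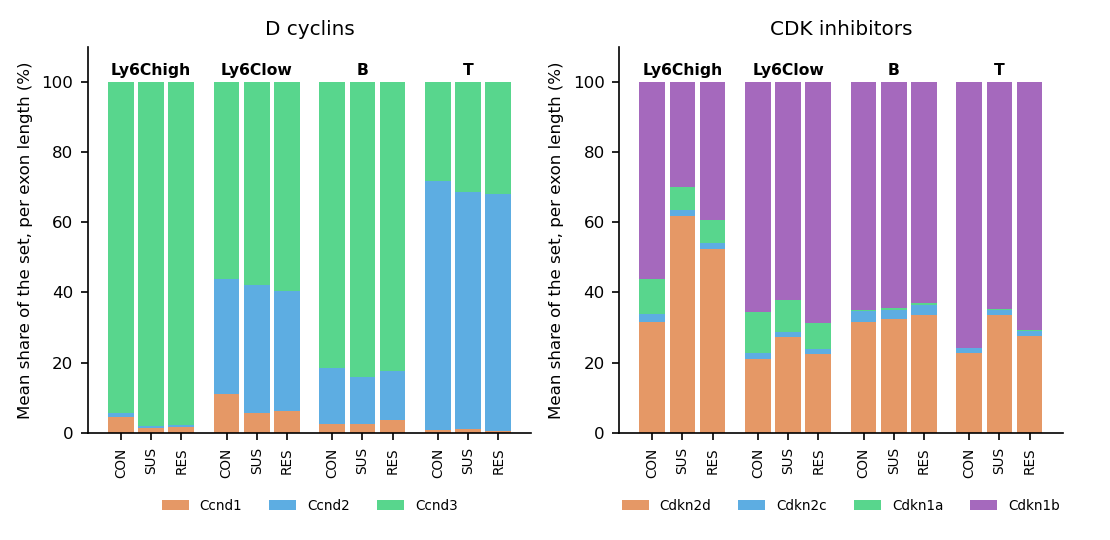
Share (%, vertical axis) of each D cyclin (left) and each CDK inhibitor (right) in the summed level of its set, per exon length; stacked bars are means of each group of CON, SUS and RES libraries in the 4 cell types. The D cyclin set changes its leading member between Ly6Chigh monocytes (Ccnd3, 94.5% in CON) and T cells (Ccnd2, 71.2% in CON).

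Among the D cyclins, Ccnd2 set all 4 cell types apart. Ccnd2 (ENSMUSG00000000184, chromosome 6 from 127125162 to 127152193) was at a mean of 2.85 CPM in Ly6Chigh monocytes, 23.0 ± 5.60 CPM in B cells, 142 ± 25.6 in Ly6Clow monocytes and 449 ± 45.6 in T cells of CON mice (SD). The 4 Ly6Clow libraries were at 136, 175, 113 and 144 CPM, the 6 Ly6Chigh libraries at 0.202 to 9.19 CPM, and the T cell libraries at 377 to 501 CPM. No pair of cell types overlapped, and all 6 pairs were called by the edgeR test. The annotated antisense genes Gm43126 and 9330179D12Rik overlap Ccnd2.

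Ccnd2 was 49.7-fold higher in Ly6Clow than in Ly6Chigh monocytes (log2 5.63 ± 0.543, SE; edgeR adjusted p = 3.40e-12) and 157-fold higher in T cells than in Ly6Chigh monocytes (log2 7.30, interval from 6.18 to 8.41, adjusted p = 7.69e-17). T cells exceeded B cells by 4.28 ± 0.489 (adjusted p = 1.13e-10) and Ly6Clow monocytes by 1.66 ± 0.507 on the log2 scale (adjusted p = 0.00705). The NK cell markers in the Ly6Clow libraries stand beside these values, and their part in the Ccnd2 level was not tested. Within cell types Ccnd2 was not called under stress. In T cells SUS libraries were lower by 0.22 ± 0.0848 on the log2 scale (edgeR adjusted p = 0.715), and the 5 RES libraries were at 380, 391, 441, 381 and 395 CPM against a CON median of 467 CPM.

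Ccnd1 (ENSMUSG00000070348, chromosome 7 from 144929931 to 144939925), the D cyclin typical of adherent and growth factor driven cells, was highest in Ly6Clow monocytes. Its 4 CON libraries there were at 31.8, 12.1, 26.6 and 24.1 CPM, all above the 3.73 to 11.3 CPM of the 6 Ly6Chigh libraries, a log2 difference of 2.14 ± 0.521 (SE; edgeR adjusted p = 0.00159). In a fit of CON libraries alone, leaving out 1 library at a time put it between 1.96 and 2.51, with an adjusted p between 0.0202 and 0.0899, and the call was lost 8 of 10 times. In B and T cells it was at 1.87 ± 1.73 and 2.20 ± 1.31 CPM (SD), lower than in Ly6Clow monocytes by 3.65 ± 0.545 and 3.42 ± 0.540 (adjusted p = 6.54e-08 and 2.52e-07). The differences of B and T cells from Ly6Chigh monocytes, -1.51 and -1.28, were called in the fit of all 12 groups (adjusted p = 0.00831 and 0.0249) and not in a fit of CON libraries alone (adjusted p = 0.0588 and 0.1197). The overlapping protein-coding gene on the other strand is LTO1, and how the counting treated strand is not given in the sources used here.

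Stressed monocytes of both kinds carried less Ccnd1 in the mean. In Ly6Chigh monocytes the levels ran from 0.850 over 2.11 to 3.58 CPM in SUS and from 1.86 over 2.51 to 3.99 CPM in RES libraries, against 3.73 over 4.23 to 11.3 CPM in CON libraries. The log2 difference was -1.40 ± 0.447 (SE) for SUS, given as a description, and -1.02 ± 0.443 for RES, which did not pass (edgeR adjusted p = 0.180). Without CON library 1, at 11.3 CPM, the differences were -1.04 and -0.66. In Ly6Clow monocytes the SUS median was 12.7 CPM and the RES median 14.3 CPM against 25.3 CPM in CON, with log2 differences of -0.78 ± 0.238 (edgeR adjusted p = 0.203) and -0.66 ± 0.238 (edgeR adjusted p = 0.325). Neither passed, and 1 CON library, at 12.1 CPM, lay inside the stressed range.

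Ccnd3 (ENSMUSG00000034165, chromosome 17 from 47505051 to 47599691), the D cyclin of most blood lineages, was the D cyclin of Ly6Chigh monocytes. It was at 222 ± 20.9 CPM in Ly6Chigh monocytes, 225 ± 8.98 in Ly6Clow monocytes, 164 ± 17.2 in T cells and 110 ± 19.1 in B cells of CON mice (SD). The 2 monocyte classes differed by 0.02 on the log2 scale with an interval from -0.29 to 0.33. B cells were lower than Ly6Chigh and Ly6Clow monocytes by 1.01 ± 0.143 and 1.03 ± 0.156 (SE; edgeR adjusted p = 1.21e-08 and 9.84e-08), barely past the fold needed for a call, and T cells exceeded B cells by 0.58 ± 0.142 without reaching it (adjusted p = 0.000923). Bysl overlaps Ccnd3 on the other strand, and a processed copy, Ccnd3-ps, exists elsewhere in the genome.

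Under stress Ccnd3 was higher in the mean in both monocyte classes and was not called in either. The SUS difference in Ly6Chigh monocytes, 0.50 on the log2 scale, was 0.26 without library 14. It turned to -0.02 with the mean log2 level of the red cell genes as a covariate. In Ly6Chigh monocytes Ccnd3 ran from 198 over 306 to 517 CPM in SUS and from 227 over 305 to 400 CPM in RES libraries. The CON libraries ran from 192 over 229 to 247 CPM. The RES difference was 0.43 ± 0.175 on the log2 scale (SE; edgeR adjusted p = 0.146). In Ly6Clow monocytes the CON libraries were at 214, 224, 224 and 236 CPM and all 6 RES libraries lay above them, at 258 to 302 CPM, with a log2 difference of 0.28 ± 0.102 (edgeR adjusted p = 0.325).

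Per exon length, Ccnd3 made up 94.5% ± 2.46 (SD) of the D cyclin level in Ly6Chigh monocytes of CON mice, and Ccnd1 4.37% ± 2.72. In Ly6Clow monocytes the 3 genes shared it, with 56.0% ± 2.49 for Ccnd3, 32.9% ± 5.03 for Ccnd2 and 11.1% ± 4.04 for Ccnd1. B cells held 81.5% ± 3.70 Ccnd3 and 16.2% ± 4.28 Ccnd2. T cells were the cell type led by Ccnd2, at 71.2% ± 3.97 against 28.1% ± 3.83 for Ccnd3. With the longest transcript as the length, T cells held 62.1% Ccnd2 and 37.4% Ccnd3, and Ly6Clow monocytes 67.0% Ccnd3, so the leading gene of each cell type was the same.

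Of the kinases, Cdk4 was higher in lymphocytes and Cdk6 had its highest means in monocytes. Cdk4 (ENSMUSG00000006728, chromosome 10 from 127063534 to 127067920) was at 49.5 ± 3.75 CPM in B cells and 46.9 ± 4.83 in T cells of CON mice, and at 23.9 ± 3.26 in Ly6Chigh and 22.5 ± 1.55 CPM in Ly6Clow monocytes (SD). Every lymphocyte library lay above every monocyte library. B cells exceeded Ly6Chigh and Ly6Clow monocytes by 1.05 ± 0.168 and 1.14 ± 0.193 on the log2 scale, and T cells exceeded Ly6Clow monocytes by 1.06 ± 0.192 (SE; edgeR adjusted p = 2.90e-07, 1.29e-06 and 5.20e-06), and these were called. T cells exceeded Ly6Chigh monocytes by 0.97 ± 0.168 (adjusted p = 1.48e-06), just short of the fold for a call. In the stressed groups B cells and Ly6Chigh monocytes were close in Cdk4, at log2 differences of -0.18 in SUS libraries (adjusted p = 0.409) and 0.03 in RES libraries (adjusted p = 0.952). Over the alternative fits, those of stressed libraries among them, the T cell difference from Ly6Chigh monocytes ran from 0.15 to 0.98. Median red cell sums in CON libraries were 2782 CPM in B cells, 1480 in T cells, 608 in Ly6Chigh and 592 CPM in Ly6Clow monocytes. The part of red cell RNA in the Cdk4 order was not tested. Tspan31 overlaps Cdk4 on the other strand.

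Cdk6 (ENSMUSG00000040274, chromosome 5 from 3341485 to 3531008) was at 48.4 ± 9.17 and 46.3 ± 13.4 CPM in Ly6Clow and Ly6Chigh monocytes, 36.5 ± 8.16 in T cells and 31.0 ± 5.66 CPM in B cells of CON mice (SD). B cells were lower than Ly6Chigh and Ly6Clow monocytes by 0.58 ± 0.214 and 0.64 ± 0.236 on the log2 scale (SE; edgeR adjusted p = 0.0232 and 0.0240), differences under the fold for a call. Per exon length Cdk4 made up 87.3% ± 2.06 (SD) of the pair in B cells, 84.6% ± 3.76 in T cells, 69.3% ± 5.09 in Ly6Chigh and 66.8% ± 5.16 in Ly6Clow monocytes. Cdk6, which the antisense gene Gm17590 overlaps, has a long exon union of 13989 bases, and in shares of reads with no length scaling Cdk4 held 34.8% in Ly6Chigh monocytes.

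In Ly6Chigh monocytes of stressed mice Cdk4 was higher and Cdk6 lower in the mean than in CON mice. Cdk4 ran from 19.1 over 24.7 to 28.3 CPM in CON libraries, from 28.9 over 41.3 to 68.2 CPM in SUS libraries and from 25.1 over 45.6 to 61.3 CPM in RES libraries. All 6 SUS libraries and 5 of 6 RES libraries lay above all CON libraries. The log2 difference was 0.90 ± 0.218 (SE) for SUS, as a description, and 0.86 ± 0.218 for RES against CON, which passed the adjusted p but not the fold for a call (edgeR adjusted p = 0.0270, between 0.00929 and 0.0786 when 1 library was left out). With the mean log2 level of the red cell genes as a covariate the differences were 0.35 and 0.43, and the RES difference no longer passed (edgeR adjusted p = 1.000). SUS and RES differed by 0.04 ± 0.216.

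Cdk6 ran from 35.4 over 40.8 to 69.6 CPM in CON, from 11.8 over 24.1 to 39.9 CPM in SUS and from 21.4 over 26.2 to 35.2 CPM in RES libraries of Ly6Chigh monocytes. Every RES library lay below every CON library, and 4 of 6 SUS libraries did. The log2 difference of RES from CON was -0.77 ± 0.236 (SE; edgeR adjusted p = 0.0572), and that of SUS was -0.87 ± 0.237, as a description. The share of Cdk4 in the pair was 87.3% ± 5.71 (SD) in SUS and 86.0% ± 6.64 in RES mice, against 69.3% in CON mice and close to the 87.3% and 84.6% of B and T cells.

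The other cell types gave smaller differences for the kinases. In B cells the Cdk4 means were 40.2 ± 6.75 (SUS), 44.9 ± 7.12 (RES) and 49.5 ± 3.75 CPM (CON; SD), a log2 difference of -0.29 ± 0.133 for SUS (SE; edgeR adjusted p = 0.999). In T cells Cdk6 was higher in SUS mice by 0.36 ± 0.169 (edgeR adjusted p = 0.976) and in RES mice by 0.34 ± 0.177 (adjusted p = 1.000). The change of Cdk4 in RES mice was smaller in B cells than in Ly6Chigh monocytes by 1.02 ± 0.242 on the log2 scale (edgeR interaction contrast, adjusted p = 0.0263), and by 0.82 ± 0.242 in T cells (adjusted p = 0.0644). For Cdk6 the change was larger in T cells than in Ly6Chigh monocytes by 1.10 ± 0.309 (adjusted p = 0.0607). When the model held B cells and Ly6Chigh monocytes alone, the Cdk4 difference did not pass (adjusted p = 0.0952). Neither fit used the red cell covariate.

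**Figure D4:**
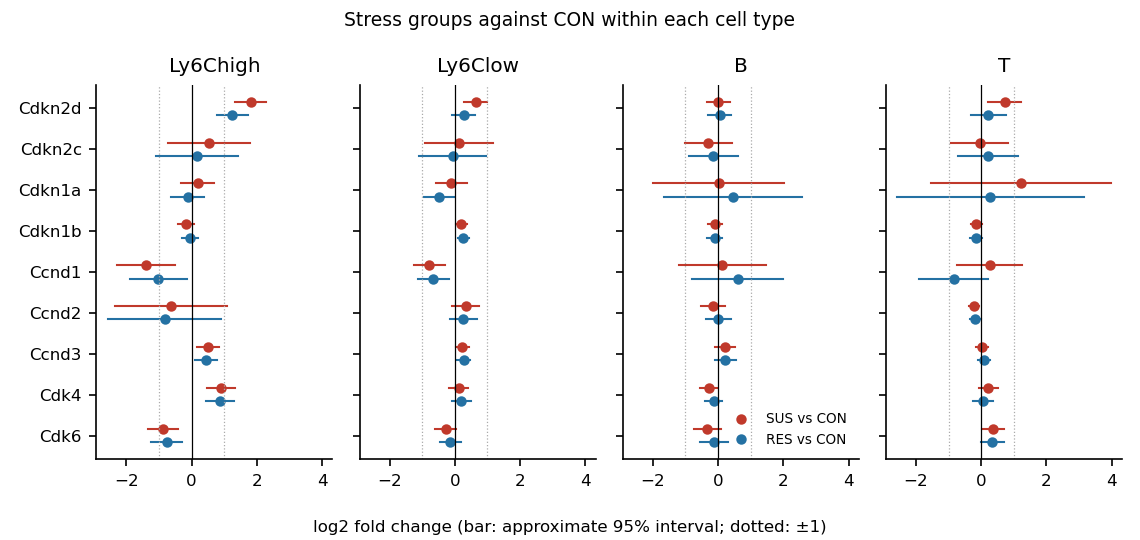
Log2 fold change of each of the 9 genes for SUS and RES against CON mice in the 4 cell types, with approximate 95% intervals as bars. In Ly6Chigh monocytes Cdkn2d and Cdk4 lie to the right of 0 and Cdk6 and Ccnd1 to the left in both stressed groups, while in B cells the intervals of Cdkn2d centre near 0.

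Counted over the 9 genes, few calls were made within cell types, and the counts are read against the share of all genes called by the same rule (adjusted p under 0.05, log2 fold change past 1 in either direction). In Ly6Chigh monocytes 2 of 9 genes, Cdkn2d and Ccnd1, were past it for SUS against CON, where 3.45% of all genes were, and nothing is read from this count because the contrast chose the set. For RES against CON 1 of 9 was past it, with a background of 0.997%. It was Cdkn2d, set against the same CON libraries that chose it, and nothing is read from this count either. For SUS against RES 0 of 9 genes and 0% of all genes were called, with 1 of 9 and 3.66% of all genes at an unadjusted p under 0.05 and 0 of 9 called by DESeq2. That 1 gene was Cdkn2d, in the SUS libraries that chose it, and nothing is read from this count.

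In Ly6Clow monocytes 0 of 9 genes were called by edgeR and 0 by DESeq2 in SUS against CON, RES against CON and SUS against RES, against backgrounds of 0.0871%, 0.0154% and 0%. At an unadjusted p under 0.05 there were 4, 3 and 1 of the 9 genes, and 9.51%, 9.67% and 3.79% of all genes. In B cells edgeR and DESeq2 called 0 of 9 in all 3 contrasts, against backgrounds of 0.00568%, 0% and 0%, and 1, 0 and 0 of the 9 genes had an unadjusted p under 0.05, as had 3.42%, 3.18% and 1.36% of all genes. In T cells both tools again called 0, against backgrounds of 0.0265%, 0% and 0%, and 3, 0 and 0 of the 9 genes had an unadjusted p under 0.05, as had 4.80%, 4.11% and 2.39% of all genes. These backgrounds are so low that a count of 0 among 9 genes says little about the set.

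Between cell types of CON mice calls were frequent for these genes and for all others. Of the 9 genes, 2 were called between Ly6Clow and Ly6Chigh monocytes (background 10.6%), 5 between B cells and Ly6Chigh monocytes (32.3%), 3 between T cells and Ly6Chigh monocytes (32.4%), 5 between B cells and Ly6Clow monocytes (28.9%), 4 between T cells and Ly6Clow monocytes (27.1%) and 1 between T and B cells (20.0%). Ccnd2 was among the called genes in each of the 6 pairs.

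The test of the difference in the change between cell types was read for the 8 genes other than Cdkn2d. For RES against CON it called 0 of 8 between Ly6Clow and Ly6Chigh monocytes (0.0990% of all genes), 1 between B cells and Ly6Chigh monocytes (1.65%), which was Cdk4, 0 between T cells and Ly6Chigh monocytes (0.713%), 0 between B cells and Ly6Clow monocytes (0.0701%), 0 between T cells and Ly6Clow monocytes (0.00412%) and 0 between T and B cells (0.0206%). For SUS against CON it called 0 of 8 between B cells and Ly6Clow monocytes (0.128%), T cells and Ly6Clow monocytes (0.00412%) and T and B cells (0.0949%). In these tests, in the same order, 2, 2, 2, 1, 1, 1, 0, 2 and 2 of the 8 genes had an unadjusted p under 0.05, as had 11.7%, 18.2%, 17.7%, 7.61%, 7.24%, 6.53%, 7.76%, 7.39% and 7.16% of all genes, and DESeq2 was not run on them.

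Transcripts of other cells moved with the groups in Ly6Chigh monocytes. The summed level of the red cell list (7 of 8 genes matched, all with counts) was 343 to 1216 CPM in CON, 1098 to 8996 CPM in SUS and 1077 to 4351 CPM in RES libraries. The 5 granule genes of myeloid progenitors summed to 3.74 to 32.7 CPM in CON, 12.1 to 146 CPM in SUS and 20.7 to 86.7 CPM in RES libraries, and 8 neutrophil genes to 16.7 to 418, 47.2 to 1384 and 59.5 to 727 CPM. B cell and T cell markers stayed under 19 CPM in these libraries. The median red cell sum was higher in stressed mice of the other cell types too. In CON, SUS and RES libraries it was 592, 1066 and 1061 CPM in Ly6Clow monocytes. In B cells it was 2782, 5570 and 4656 CPM, and in T cells 1480, 2387 and 1926 CPM.

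A further fit took the mean log2 level of the red cell genes as a covariate. In it the log2 difference of Cdkn2d between SUS and CON Ly6Chigh monocytes was 1.39 instead of 1.81. That of Cdk6 was -0.65 instead of -0.87. For RES against CON Cdkn2d was at 0.91 instead of 1.25. None of the 9 genes was called in either contrast with this covariate. The share of all genes called in that fit is not given here, so nothing is read from this count. Library 14 (SUS), with the highest red cell sum of 8996 CPM, was also the library highest in Cdkn2d (131 CPM), Cdk4 (68.2 CPM) and Ccnd3 (517 CPM) and lowest in Cdk6 (11.8 CPM). Without it the differences were 1.64 for Cdkn2d and 0.71 for Cdk4. The part of red cell and progenitor RNA in the Ly6Chigh values was not tested.

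**Figure D5:**
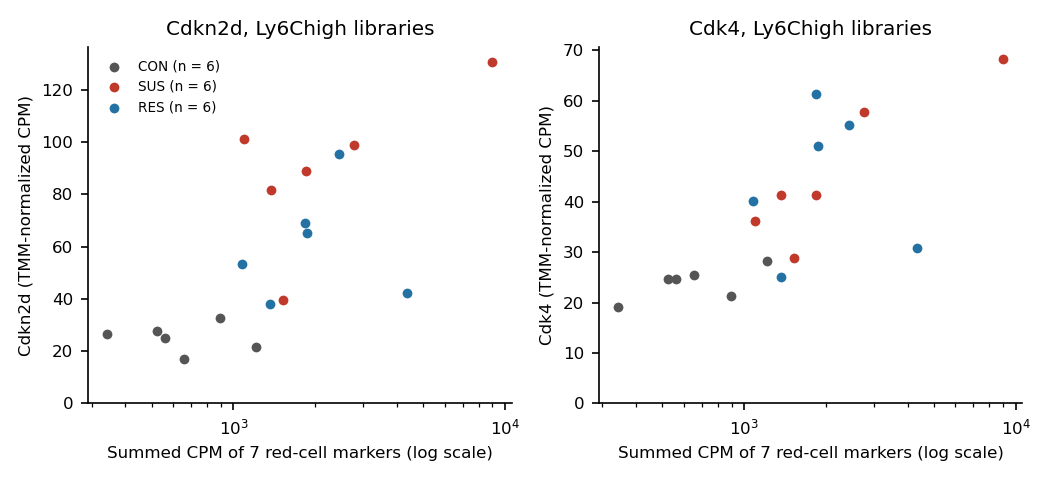
Level of Cdkn2d (left) and Cdk4 (right) in CPM against the summed level of 7 red cell genes (CPM, log scale), one point for each Ly6Chigh library, coloured by condition. The CON libraries have red cell sums of 343 to 1216 CPM, and the SUS library at 8996 CPM is the highest in both genes.

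The wider G1 to S pathway was read from 30 further genes, of which 25 to 28 could be tested within a cell type. In Ly6Chigh monocytes edgeR and DESeq2 called 0 of 27 for SUS against CON and 0 of 27 for RES against CON, with 6 and 4 at an unadjusted p under 0.05, as had 26.5% and 21.2% of all genes. The median log2 fold change of the list was 0.15 and 0.02, against -0.05 and -0.03 over all genes tested. No gene of this list was called in any stress contrast of the other cell types either, by edgeR or by DESeq2. For SUS against CON, RES against CON and SUS against RES, genes with an unadjusted p under 0.05 were counted in that order. Ly6Clow monocytes had 0, 1 and 1 of 28, against 9.51%, 9.67% and 3.79% of all genes. B cells had 5, 1 and 2 of 25 (3.42%, 3.18% and 1.36%). T cells had 4, 3 and 1 of 27 (4.80%, 4.11% and 2.39%).

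Several genes of the list were called between cell types of CON mice, in either direction. E2f2, an activating E2F, was at 186 ± 31.2 CPM in Ly6Chigh monocytes, 96.6 ± 8.35 in Ly6Clow monocytes, 86.7 ± 14.7 in B cells and 19.7 ± 3.92 CPM in T cells (SD). Rb1, the retinoblastoma gene, was at 95, 137, 43.1 and 27.6 CPM in the same order, and both were called lower in T cells than in either monocyte class. Myc ran the other way, at 6.16 ± 4.21, 11.0 ± 1.25, 32.6 ± 4.40 and 67.5 ± 6.06 CPM, and was called higher in B and T cells than in either monocyte class. E2f5, a repressing E2F, was called higher in B cells (6.99 ± 2.24 CPM) and T cells (7.97 ± 1.29) than in Ly6Chigh monocytes (3.26 ± 2.30 CPM), unlike E2f2. Ccne1, which encodes cyclin E1, was at 9.37 ± 2.78 CPM in B cells and 12.4 ± 3.16 in T cells against 0.749 ± 0.649 CPM in Ly6Chigh and 1.06 ± 0.822 CPM in Ly6Clow monocytes.

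E2f8, an atypical repressing E2F, was at 17.7 CPM in Ly6Chigh monocytes, 5.41 in Ly6Clow monocytes, 1.59 in T cells and 0.166 CPM in B cells. Tfdp1, the E2F partner, was at 37.4, 21.3, 27.4 and 7.97 CPM in the same order, and neither was called between the monocyte classes. Of the 29 genes tested, 3 were higher and 6 lower in B cells than in Ly6Chigh monocytes (32.3% of all genes called), 6 higher and 5 lower in T cells than in Ly6Chigh monocytes (32.4%), 2 higher and 7 lower in B cells than in Ly6Clow monocytes (28.9%), 2 higher and 4 lower in T cells than in Ly6Clow monocytes (27.1%), and 5 higher and 1 lower in T than in B cells (20.0%). These counts lay at or near the share of all genes and are no result about the list. Between Ly6Clow and Ly6Chigh monocytes (10.6%) edgeR made 1 call and DESeq2 0. The gene was Cdkn2b, a further INK4 gene, at 0.434 ± 0.520 CPM in Ly6Clow monocytes (SD) and without a count in CON Ly6Chigh monocytes, where 3 counts would be 0.0751 to 0.0865 CPM.

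A list of 20 proliferation genes gave 1 call for SUS against CON in Ly6Chigh monocytes (3.45% of all genes), in the contrast that chose Cdkn2d, and 1 in T cells (0.0265%). Mcm5, a subunit of the replicative helicase, averaged 17.8 ± 10.1 CPM in Ly6Chigh monocytes of SUS mice, against 6.95 ± 3.00 CPM in those of CON mice (SD), a log2 fold change of 1.33 ± 0.348 (SE), given as a description. Rrm2, a subunit of ribonucleotide reductase, averaged 16.1 ± 10.3 CPM in T cells of SUS mice, against 3.599 ± 1.19 CPM in those of CON mice, a log2 fold change of 2.15 ± 0.338 (edgeR adjusted p = 0.00338). In T cells 11 of the 20 genes and 4.80% of all genes had an unadjusted p under 0.05 for SUS against CON, and the list median was 0.77 against -0.003 over all genes, with 3 calls by DESeq2. For RES against CON in T cells 6 of the 20 genes and 4.11% of all genes had an unadjusted p under 0.05. The list median was 0.58 there, against 0.005 over all genes, with 0 calls by edgeR and 1 by DESeq2. The summed proliferation level of T cells was 437 to 562 CPM in CON, 537 to 975 in SUS and 544 to 737 CPM in RES libraries. SUS libraries 63 and 66 were at 906 and 975 CPM, and the other SUS libraries at 537 to 617 CPM.

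The genes of the replicative helicase and the late cell cycle genes did not follow one order across cell types of CON mice. Mcm2 was at 6.12 CPM in Ly6Chigh monocytes, 16.4 in Ly6Clow monocytes, 59.1 in B cells and 59.9 CPM in T cells, and Mcm5 at 6.95, 30.8, 48.3 and 32.3 CPM. Mki67, the gene of the Ki-67 antigen, was at 61.8, 62.5, 4.66 and 29.3 CPM. Mcm2, Mcm3, Mcm4, Mcm5 and Mcm6 were called higher, and Aurkb, a mitotic kinase gene, lower in Ly6Clow than in Ly6Chigh monocytes. Mcm2 to Mcm7 were called higher and Mki67 lower in B and T cells than in Ly6Chigh monocytes. Mcm7 was at 59.1 and 69.9 CPM against 17.6 CPM. Cdc20 was called higher in both too, by 1.86 and 1.95 on the log2 scale, and Tyms higher in T cells. Plk1 and Top2a were called lower in B cells, and Aurkb lower in T cells. Against Ly6Chigh monocytes 7 of the 20 genes were called higher and 3 lower in B cells (32.3% of all genes called). In T cells 8 were higher and 2 lower (32.4%), and in Ly6Clow monocytes 5 were higher and 1 lower (10.6%).

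The p53 list was read beside Cdkn1a, whose window upstream of its first start holds the p53-type match shown above. Of its 12 genes, 10 or 11 could be tested, and edgeR and DESeq2 called 0 in each of the 12 stress contrasts. In these contrasts 0% to 3.45% of all genes were called by edgeR. From 0 to 2 list genes had an unadjusted p under 0.05, as had 1.36% to 26.5% of all genes. The 2 were of 10 tested for SUS against CON in Ly6Chigh monocytes, where the share was 26.5%. Between cell types of CON mice the list genes went both ways. Of 11 genes tested, 0 were higher and 2 lower in B cells than in Ly6Chigh monocytes (32.3% of all genes called). Against Ly6Clow monocytes 1 was higher and 3 lower in B cells (28.9%). In T cells 4 were higher and 1 lower than in Ly6Chigh (32.4%), and 2 and 2 than in Ly6Clow monocytes (27.1%). T against B cells gave 3 and 0 (20.0%), Ly6Clow against Ly6Chigh 1 and 0 (10.6%). Nothing is read from these counts. Bbc3 was called lower in B cells than in either monocyte class. Trp53 itself was higher in T cells, at 91.6 ± 7.19 CPM against 44.1 ± 6.79 CPM in Ly6Chigh monocytes (SD), and so was Trp53inp1, at 213 ± 49.5 against 62.4 ± 4.44 CPM. Sesn2, a stress response gene, was lower in T and B cells, at 5.35 and 6.46 CPM against 15.0 CPM. Phlda3, an inhibitor of AKT signalling, was at 6.87 ± 3.48 CPM in Ly6Clow monocytes and 0.0385 CPM in Ly6Chigh monocytes.

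Over the 12 group means, the genes whose pattern was most like that of Cdkn2d were Acads, Psma5, Ddx23, Psmc1 and Atp5j, with Pearson r of 0.970, 0.964, 0.954, 0.948 and 0.946 among 10382 genes compared. These 12 points include the Ly6Chigh groups that chose Cdkn2d, and each mean shares its libraries and their depth between genes, so r is a description. Acads, a mitochondrial acyl-CoA dehydrogenase, was at 24.7, 40.5 and 37.9 CPM in CON, SUS and RES Ly6Chigh monocytes, and the proteasome subunit gene Psma5 at 24.0, 47.7 and 43.1 CPM. Atp5j, a subunit of ATP synthase, was at 56.9, 115 and 90.8 CPM. Of the other members, r with Cdkn2d was 0.498 for Cdk4, 0.344 for Ccnd3, 0.136 for Cdkn1a, -0.485 for Ccnd1, -0.533 for Cdkn1b, -0.577 for Ccnd2 and -0.599 for Cdk6.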

How the data were processed

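RNA of sorted mouse blood leukocytes was sequenced from a stranded, ribosome-depleted total RNA library kit. The deposited values are raw read counts per Ensembl gene, which the authors made by aligning reads to mm10 with HISAT2 and counting with HTSeq, before a DESeq2 test of their own; the strand setting and the treatment of duplicate and multiply mapped reads are not given in the sources used here. Identifiers were matched to GENCODE M21 symbols for 52489 of 52636 genes (99.72%), and 0 entries named no gene.

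Groups were taken from the sample labels, and libraries 52 and 70 were left out. Within each cell type the 3 conditions were fitted together with edgeR 4.0.16 in R 4.3.3 (limma 3.58.1, TMM scaling, filterByExpr, robust quasi-likelihood F test), and comparisons between cell types came from 1 model of 12 group means over 68 libraries and 24248 genes. A call needed a Benjamini-Hochberg adjusted p under 0.05 with a log2 fold change past 1 in either direction, and differences between cell types in the change needed the adjusted p alone. Standard errors were the absolute log2 fold change over the root of F, and 95% intervals are normal approximations. Levels are TMM-scaled CPM (factors 0.67 to 1.27), per kilobase of the union of exons where genes are compared. Likeness used log2(CPM + 0.5) and genes at a mean of at least 5 CPM. Depth was 19769835 to 67038231 counts (median 37105584), so that 3 counts amount to between 0.0485 and 0.166 CPM, covering counting error only. Of 161 library pairs within groups 0 were identical, and the smallest chi-square per degree of freedom was 22.04. DESeq2 1.42.0 served as an alternative, and the tests were checked on simulated counts. Figures were drawn with matplotlib 3.10.9.

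The 9 genes, the pathway lists and the marker lists were chosen with earlier results of these data known. Genes named were the 9 members, list genes called in a contrast (at most the 8 with the largest change) and the 5 genes most like Cdkn2d. E2f5, called between cell types but not among those 8, was named in addition, beside E2f2. Marker lists covered red cells, platelets, neutrophils, myeloid granule genes, both monocyte classes, B, T and NK cells. Platelet genes summed to 6.15 to 10.4 CPM in CON, 5.86 to 51.3 CPM in SUS and 7.66 to 19.7 CPM in RES Ly6Chigh monocytes.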

Additional observations from a re-analysis of the deposited data

Results flagged for a closer look

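In 6 of 103 gene and group pairs 1 library stood apart by Dixon's criterion, close to the 1 in 20 that chance gives. Cdkn2d was at 14.2 CPM in library 28 (Ly6Clow, RES), against 22.7 to 26.4 CPM in the other 5. Library 1 (Ly6Chigh, CON) was high in Cdkn1a, at 29.3 CPM against 15.0 to 16.0 CPM, and in Ccnd1, at 11.3 CPM against 3.73 to 4.84 CPM. Cdkn1b was at 174 CPM in library 12 (Ly6Chigh, RES) against 111 to 121 CPM, Ccnd2 at 441 CPM in library 61 (T cells, RES) against 380 to 395 CPM, and Cdk6 at 61.8 CPM in library 27 (Ly6Clow, SUS) against 31.3 to 39.9 CPM.

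The change of Cdk4 in RES mice differed between B cells and Ly6Chigh monocytes, by -1.02 on the log2 scale in the test of the difference itself (edgeR adjusted p = 0.0263), and did not pass when those cell types were fitted alone (adjusted p = 0.0952). Cdk4 was at 43.9 CPM in RES and 23.9 CPM in CON Ly6Chigh monocytes, and at 44.9 and 49.5 CPM in B cells. With the red cell covariate the RES change in Ly6Chigh monocytes was 0.43 instead of 0.86, and the test of the difference did not use that covariate.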

How the results depend on the processing

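Counts of genes called out of 9 changed as follows. The share of all genes called under each alternative is not given here, so nothing is read from the changed counts. For SUS against CON in Ly6Chigh monocytes the count of 2 was 1 without the low-count filter, 0 with the red cell covariate and 4 by adjusted p alone, and 1 to 3 when a library was left out. For RES against CON in Ly6Chigh monocytes the count of 1 was 0 with the red cell covariate and 2 by adjusted p alone. Between cell types, the count of 5 for B cells against Ly6Chigh monocytes was 3 in RES libraries and 3 to 5 when a CON library was left out, the 3 for T cells against Ly6Chigh monocytes was 6 and the 1 for T against B cells was 3 by adjusted p alone, and the 2 for Ly6Clow against Ly6Chigh monocytes was 1 to 2 when a CON library was left out. The count of 2 in the difference of RES against CON between B cells and Ly6Chigh monocytes was 0 with those cell types alone; it includes Cdkn2d, whose Ly6Chigh CON libraries chose it. Fits that left out a CON library between cell types used the CON libraries alone, an alternative added after seeing the data. Signs turned for Ccnd3 in SUS Ly6Chigh monocytes (-0.022 with the red cell covariate), for Cdkn2d in B cells (SUS against CON -0.17 and RES against CON -0.089 with that covariate; -0.18 to 0.086, -0.024 to 0.13 and, for SUS against RES, -0.23 to 0.037 when a library was left out), and between cell types in stressed libraries for B cells against Ly6Chigh monocytes in Ccnd1 (0.093, RES), Cdk4 (-0.18, SUS) and Cdk6 (0.035, RES) and for T cells against Ly6Chigh monocytes in Ccnd1 (0.34, SUS). The cause was not tested. The calls of Ccnd3 and Cdk4 between B cells and Ly6Chigh monocytes lay at the fold threshold: Ccnd3 was at -0.98 without mitochondrial, hemoglobin and ribosomal genes, and Cdk4 at 1.00 by DESeq2. Ccnd2 kept its direction and its call in all 6 pairs of cell types under every alternative other than leaving out a library, where its T cell difference from Ly6Clow monocytes (1.57 to 1.78) lost the adjusted p 2 times. No paired analysis was possible because the labels name no mouse and the library numbers are not shared between groups. If libraries of different cell types came from the same mice, the fits across cell types treated them as independent. Cdkn1a in lymphocytes, with 0 to 92 counts a library, and Ccnd2 in Ly6Chigh monocytes are limited by depth.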
